A study of Mus musculus with 6 samples.

Results

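Genes that drive and carry out mitosis were followed in the dissected heads of 6 mouse embryos, in 2 groups of 3 that carry the labels wild type (WT) and Tasp1 KO (knockout). A list of 35 genes for cyclins and CDK1, the spindle checkpoint, the kinetochore, the spindle and cytokinesis was matched by symbol to array probe sets that carry exactly 1 gene symbol, and the probe set with the highest mean signal stood for each gene. This gave 34 of the 35 genes, among 19938 genes with such a probe set. All 34 lay above the brightness filter that kept 11802 genes for testing. Ccnb1, the gene for cyclin B1, had no probe set with its symbol as annotated and was not analysed here.

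Both groups were embryos at E10.5 on a C57Bl6 background, bred from Tasp1+/- parents, and the KO-labelled embryos are Tasp1-/-. Each head contributed its prosencephalon and mesencephalon, the forebrain and midbrain vesicles, as a mixture of all cells present there, so fewer cells of a type and less RNA per cell cannot be told apart. Tasp1 encodes Taspase1, a protease that cuts MLL-family histone methyltransferases and the precursor of the general transcription factor TFIIA. The study asked which genes depend on it during development. Values are deposited log2 signals, and every difference is KO-labelled minus WT-labelled heads with the standard error (SE) of a limma fit over all 11802 genes.

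Cells enter mitosis when CDK1, bound to cyclin A or cyclin B, is switched on. Chromosomes are then attached to the spindle at kinetochores, protein plates built on centromeres, while the spindle checkpoint holds back separation until every kinetochore is attached. Transcripts of this machinery mostly peak in G2 and mitosis, so their level in a tissue is commonly read as a sign of how many of its cells divide. In the early neural tube most cells are dividing neuroepithelial progenitors. The promoters of mitotic genes are classically described as sharing CCAAT boxes, bound by the factor NF-Y, and a cell cycle genes homology region (CHR), bound by the MuvB complex together with B-MYB or as part of the repressive DREAM complex.

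To show this shared layout, the stretch from 230 bases before to 30 bases after the annotated start is printed for 4 members: Cenpa, Plk1 and Top2a, whose heads did not overlap between groups, and Ccnb2, the cyclin B gene measured here. The sequences are reference sequences from RefSeq (build GRCm38.p6), 5′ to 3′ on the strand of the gene, and each covers the upstream flank and the first transcribed bases. They lie at chr5:30666656-30666915 (+ strand) for Cenpa, chr7:122159205-122159464 (+ strand) for Plk1, chr11:99024160-99024419 (- strand) for Top2a and chr9:70421525-70421784 (- strand) for Ccnb2. Capitals mark CCAAT or its reverse complement ATTGG, and the CHR-type letters TTTGAA, its reverse complement TTCAAA, or TTTAAA, which reads the same on both strands.
Cenpa: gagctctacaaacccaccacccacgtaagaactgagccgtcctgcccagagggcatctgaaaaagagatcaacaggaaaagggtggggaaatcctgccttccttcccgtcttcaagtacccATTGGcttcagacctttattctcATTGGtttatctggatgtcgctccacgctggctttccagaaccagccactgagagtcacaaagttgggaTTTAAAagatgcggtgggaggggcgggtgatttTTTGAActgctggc
Plk1: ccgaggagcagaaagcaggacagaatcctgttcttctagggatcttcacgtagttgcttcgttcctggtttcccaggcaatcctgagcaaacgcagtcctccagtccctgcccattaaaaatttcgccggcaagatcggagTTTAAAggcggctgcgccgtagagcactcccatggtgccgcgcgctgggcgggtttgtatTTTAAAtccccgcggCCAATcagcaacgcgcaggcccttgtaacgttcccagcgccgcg
Top2a: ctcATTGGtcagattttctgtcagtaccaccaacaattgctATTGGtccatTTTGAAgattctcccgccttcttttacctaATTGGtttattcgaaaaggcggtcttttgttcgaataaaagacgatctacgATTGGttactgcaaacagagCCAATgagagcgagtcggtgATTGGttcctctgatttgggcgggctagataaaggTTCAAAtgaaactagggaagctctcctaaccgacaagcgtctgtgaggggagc
Ccnb2: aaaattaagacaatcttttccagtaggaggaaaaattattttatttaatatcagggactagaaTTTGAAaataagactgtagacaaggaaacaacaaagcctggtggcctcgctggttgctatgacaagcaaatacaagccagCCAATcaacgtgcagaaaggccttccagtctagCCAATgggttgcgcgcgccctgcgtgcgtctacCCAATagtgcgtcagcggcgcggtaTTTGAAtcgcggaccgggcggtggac

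The windows searched ran from 250 bases before to 50 bases after the start, on both strands, with overlapping matches counted separately. RefSeq windows were found for 27 of the 35 genes. A CCAAT was present for 21 of the 27 genes (77.8%), against 41.1% of all 27025 genes with a window. A TTTGAA or TTTAAA was present for 23 (85.2%, against 30.6%), and a CCAAT together with such a CHR-type match for 20 (74.1%, against 12.2%). Ccnb2 had 3 CCAAT, with first bases 87, 54 and 21 bases before the start, and a TTTGAA 4 bases after it. Cenpa had 2 CCAAT on the opposite strand and CHR-type matches on either side of its start, and Top2a had 6 CCAAT, 5 of them on the opposite strand. Plk1 had 1 CCAAT and a TTTGAA that begins at the end of the printed stretch and is not shown. Mad2l1, Mybl2 and Nuf2 had none of these letters in their windows. A match is a description of letters and not a binding site. In the map of matches the CCAAT letters fall mostly before the start.

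**Figure D1:**
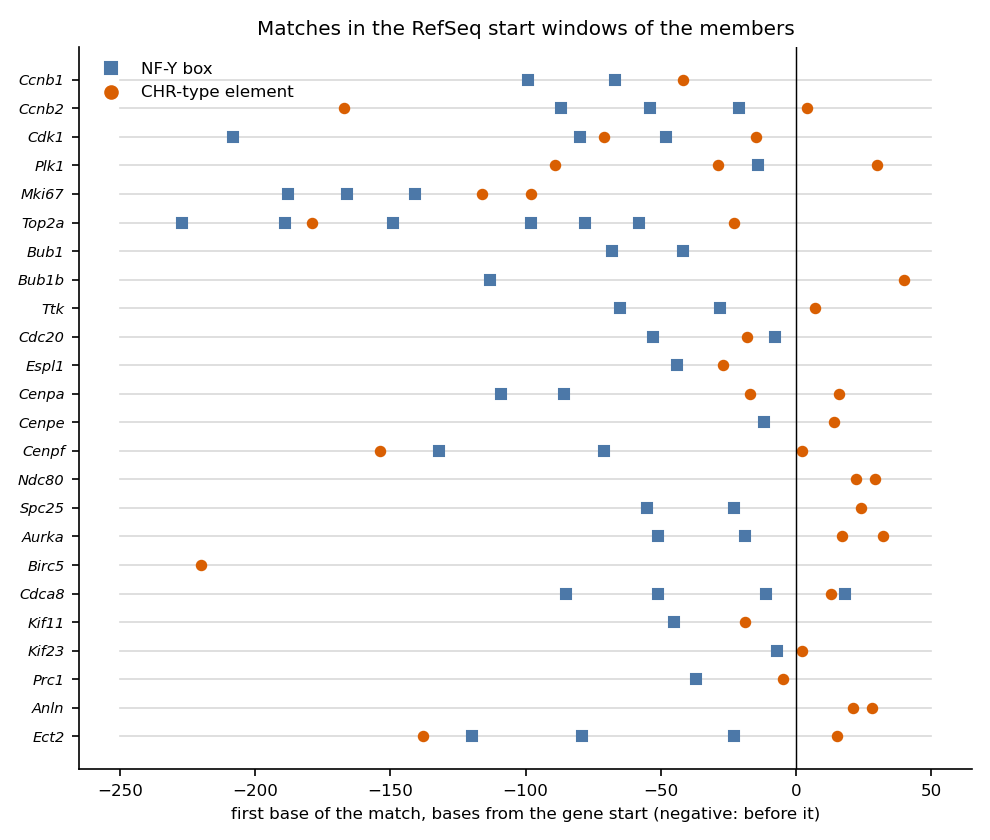
Matches in the RefSeq start windows of the 24 members with at least 1 match, 1 row per gene and for Ect2 and Prc1 1 of their 2 windows. The x axis gives the first base of each match in bases from the gene start (negative before it). Blue squares (labelled NF-Y box) are CCAAT letters on either strand. Orange circles (labelled CHR-type element) are TTTGAA on either strand or TTTAAA. Binding was not examined. CCAAT matches lie mostly before the start, and 23 of the 27 genes with a window have a CHR-type match.

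The arrays were alike, with Pearson correlations between arrays, across genes, from 0.989 to 0.996. WT 1 lay apart on the first principal component. WT 2 alone had a high Xist signal and low signals of Y-linked genes, the pattern of a female, so sex was not balanced between the groups. The Tasp1 probe set read 8.34 ± 0.21 in WT-labelled and 8.59 ± 0.08 in KO-labelled heads (SD, n = 3 each). By exact permutation the two-sided p was 0.1, the lowest value possible with 3 heads a group. Whether the probe set lies inside the deleted stretch is not known here, so it does not check the labels. All 13 neural progenitor and all 16 neuronal markers listed lay above the filter, as did all 12 markers of cranial mesenchyme and all 9 of endothelium, so passing it is not particular to neural tissue.

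Mitotic genes had nearly the same signals in KO-labelled and WT-labelled heads. In limma with Benjamini-Hochberg adjustment, 0 of the 34 members passed an adjusted p of 0.05, as did 0% of all 11802 genes tested, and 0 members passed in an ordinary linear model per gene. In limma the smallest adjusted p of a member was 0.472 (Cenpa). The ratios of KO-labelled to WT-labelled signals ran from 0.871 (Spc24) to 1.03 (Top2a). Of the 34 differences, 32 were smaller than 0.1 on the log2 scale, a count not made over all genes. The 95% intervals of 33 of the 34 members lay within 1.2-fold in either direction, against 76.2% of all genes tested. Within 1.1-fold lay 14 (41.2%, against 12.7%). The members' signals were brighter than most, at a median percentile of 86.6 among the genes tested, and their spread between heads was smaller (0.04 against 0.08, median SD on the log2 scale). These intervals are per gene and describe ratios of signals, not of transcripts. At an unadjusted p under 0.05 there were 2 members, Cenpa and Spc24, both lower (5.88% of members against 7.13% of all genes tested, or 4.65% counting lower genes alone). The heads of the groups did not overlap for 5 members, or 14.7%, against 12.3% of all genes tested. The KO-labelled heads were all lower for 4 of them, Cenpa, Tpx2, Kif20a and Plk1 (7.81% of all genes), and all higher for Top2a (4.52%).

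In the values as deposited the direction leaned slightly downward. Of the 34 members, 23 were lower and 11 higher in KO-labelled heads, where 55.4% of all genes tested were lower, and the median difference was −0.03 against −0.0092 over all genes (log2). The median ran from −0.05 to −0.0093 with single heads left out, the smallest size being without WT 1. There the median of all genes was −0.0065. After quantile normalization 21 of the 34 members and 61.1% of all genes were lower, with medians of −0.0235 and −0.0213. With each array centred on its median, 69.0% of all genes and 26 members were lower. Neuronal markers lay lower beside it, 15 of 16 with a median of −0.15, and their mean log2 signal per head was 9.47 to 9.72 in WT-labelled and 9.25 to 9.65 in KO-labelled heads. Erythroid markers were lower in 8 of 8 tested, with mean log2 signals per head of 10.06 to 10.20 and 9.95 to 10.06. Progenitor markers were lower in 11 of 13 (median −0.03) and macrophage markers in 4 of 6 tested (median −0.07), with mean log2 signals per head of 7.79 to 7.89 and 7.67 to 7.83. Markers of cranial mesenchyme (5 of 12 lower, median +0.01) and endothelium (4 of 9 lower, median 0.00092) did not lie lower. The part of these cell types in the members' values was not tested.

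**Figure D2:**
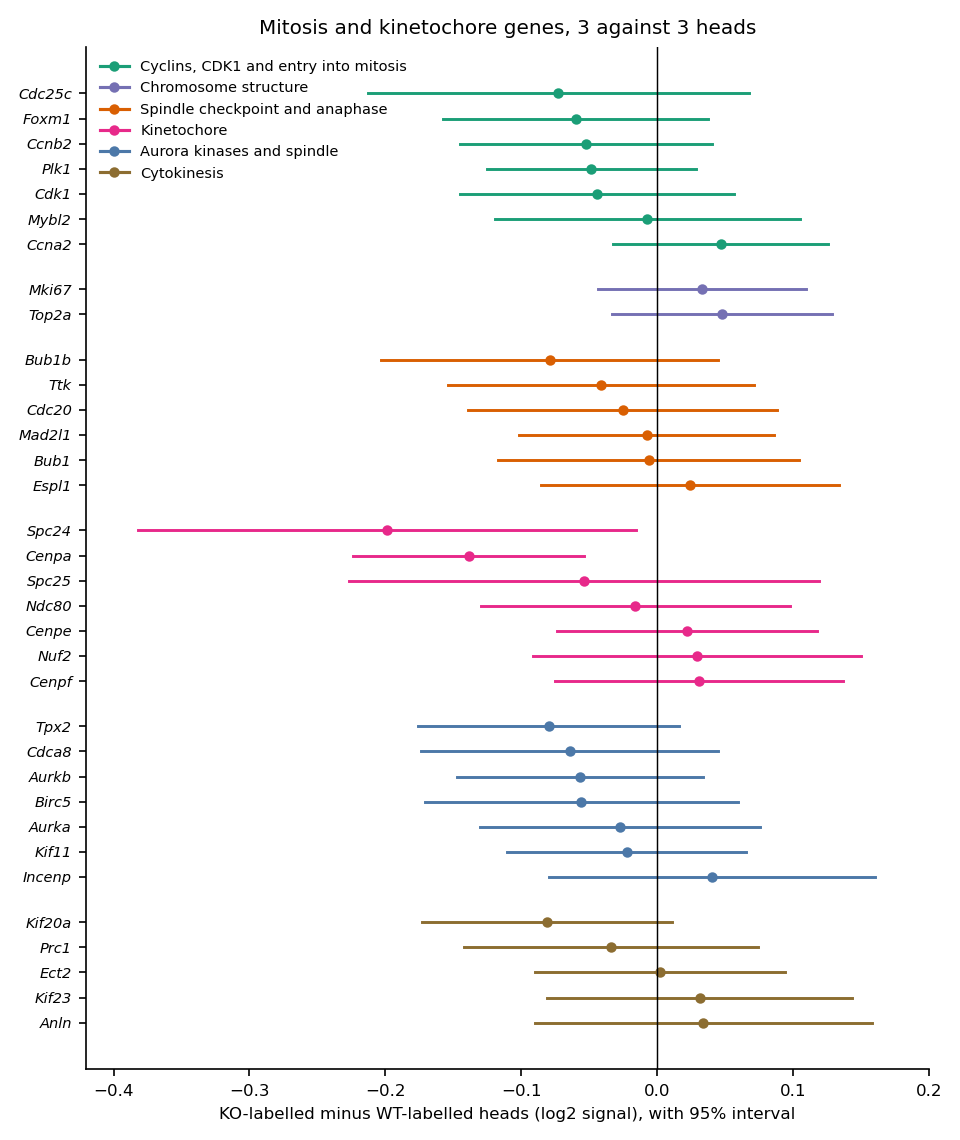
Difference in log2 signal between 3 KO-labelled and 3 WT-labelled heads (x axis) for the 34 measured members, grouped and coloured by role; points are limma estimates and bars their 95% intervals. All points lie between −0.20 (Spc24) and +0.05, and only the intervals of Spc24 and Cenpa leave out 0.

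The cyclin and CDK1 group, which triggers entry into mitosis, differed little. Of its 7 measured genes 6 were lower and 1 higher, with a median of −0.05 (log2), and 0 passed the test. Ccna2, which encodes cyclin A2, read 12.23, 12.16 and 12.17 in WT-labelled and 12.21, 12.25 and 12.24 in KO-labelled heads, a difference of +0.05 with a 95% interval from −0.03 to 0.13. Ccnb2, for cyclin B2, read 11.99, 11.96 and 11.96 against 11.93, 11.98 and 11.85, and differed by −0.05 (interval −0.14 to 0.04). Cdk1, the kinase both cyclins activate, read 11.66, 11.55 and 11.59 against 11.57, 11.60 and 11.49, and differed by −0.04. The groups overlapped for all 3 genes, and KO 3 was the lowest head for Ccnb2 and Cdk1. Without KO 3 the Ccnb2 difference was −0.02, and without WT 1 the Cdk1 difference was −0.01.

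Plk1, a kinase gene needed from mitotic entry to cytokinesis, was the member of this group whose heads did not overlap. It read 11.84, 11.88 and 11.87 in WT-labelled and 11.80, 11.83 and 11.81 in KO-labelled heads, 0.967 times as high (difference −0.05, SE 0.03, limma adjusted p = 0.81). The gap between the lowest WT-labelled and the highest KO-labelled head was smaller than the spread within either group. Cdc25c, for a phosphatase that switches CDK1 on, differed by −0.07, with KO 3 at 9.31 and the other 5 heads between 9.45 and 9.53, and by −0.01 without KO 3. Among the transcription factors of mitotic genes, Foxm1 differed by −0.06 and Mybl2, which encodes B-MYB, by −0.0070, with signals of 9.66, 9.65 and 9.65 in the KO-labelled heads inside the WT-labelled range of 9.60 to 9.71.

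Mki67 and Top2a, the genes behind the proliferation antigen Ki-67 and the DNA topoisomerase that untangles and condenses chromosomes, were at the upper end of the differences. Top2a read 11.70, 11.67 and 11.63 in WT-labelled and 11.72, 11.72 and 11.71 in KO-labelled heads, 1.03 times as high, and its KO-labelled heads were the 3 highest. The difference of +0.05 (SE 0.04) did not pass (limma adjusted p = 0.82). Mki67 read 12.01, 12.08 and 12.05 against 12.08, 12.07 and 12.09, a difference of +0.03 with overlapping groups and an interval from −0.04 to 0.11.

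The groups overlapped for all 6 measured genes of the spindle checkpoint and anaphase, where 12.3% of all genes tested did not overlap. Of the 6 genes, 5 were lower and 1, the anaphase gene Espl1, was higher (median −0.02, log2). Bub1, a checkpoint kinase gene, differed by −0.0062 and Mad2l1, for the checkpoint protein that binds CDC20, by −0.0077. The sign of both turned with quantile normalization. Bub1b, for the checkpoint protein BUBR1, read 10.44, 10.42 and 10.45 against 10.38, 10.45 and 10.25, so that KO 3 alone lay far below the rest. Its difference was −0.08, and −0.02 without KO 3. Ttk, the gene of the kinase that starts checkpoint signalling, differed by −0.04. Of the genes that bring on anaphase, Cdc20, for the activator of the ubiquitin ligase APC/C, read 11.02, 10.85 and 11.00 against 10.92, 10.94 and 10.93 (difference −0.02), and Espl1, for the cohesin-cutting protease separase, differed by +0.02, which became −0.0023 with median centring.

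The kinetochore group held the most negative differences of the 34. Cenpa, which encodes the histone H3 variant that marks centromeres, read 11.04, 11.02 and 11.03 in WT-labelled and 10.90, 10.89 and 10.88 in KO-labelled heads. The groups lay clearly apart, with means of 11.03 ± 0.01 and 10.89 ± 0.01 (SD, n = 3 each). The KO-labelled signal was 0.908 times the WT-labelled one (difference −0.14, SE 0.04, 95% interval of the ratio 0.856 to 0.964). It had an unadjusted p of 0.0047 in limma and did not pass adjustment over all genes (adjusted p = 0.47). The Cenpa difference stayed between −0.15 and −0.13 with each head left out in turn, and its adjusted p did not go below 0.05 in any alternative run.

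Spc24 and Spc25 encode the part of the NDC80 complex that docks on the centromere side, and Ndc80 and Nuf2 the part that grips microtubules. Spc24 read 8.76, 8.97 and 8.92 in WT-labelled and 8.75, 8.77 and 8.54 in KO-labelled heads, 0.871 times as high (difference −0.20, SE 0.08, limma adjusted p = 0.67). The groups overlapped, since WT 1 lay below KO 2. The Spc24 difference ran from −0.26 without WT 1 to −0.12 without KO 3. Spc25 read 9.71, 9.44 and 9.42 against 9.42, 9.50 and 9.50, where WT 1 alone stood high, and its difference of −0.05 was +0.04 without WT 1. Ndc80 (−0.02) and Nuf2 (+0.03) differed by less than their SE of 0.05. Of the 4 genes of this complex, 3 were lower and 1 higher. Cenpe, a kinesin gene of the kinetochore (+0.02), and Cenpf, for a large outer kinetochore protein (+0.03), overlapped as well, and the sign of Cenpe turned with median centring.

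**Figure D3:**
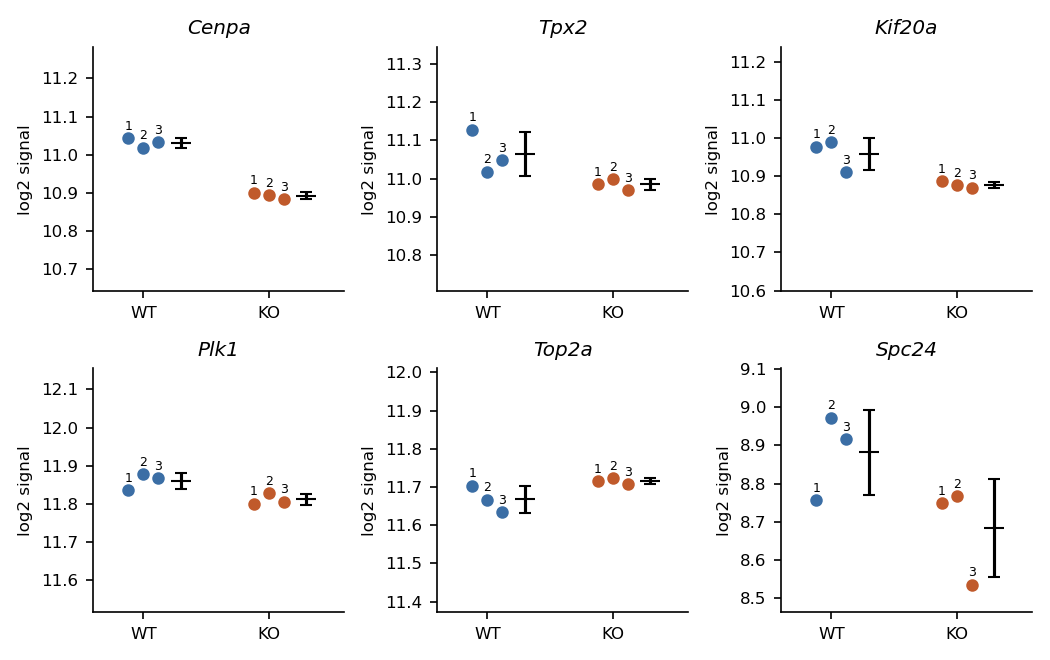
Log2 signal in each head (y axis, the same span in every panel) for the 5 members whose groups did not overlap and for Spc24; numbers are the labelled replicates, and bars are means with SD (n = 3). Cenpa has the widest gap, 11.02 or more against 10.90 or less, while WT 1 of Spc24 lies among the KO-labelled heads.

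Genes of the Aurora kinases and the spindle were lower in 6 of 7 cases, with a median of −0.06 (log2), and 0 passed. Tpx2, for the microtubule factor that activates Aurora A, read 11.13, 11.02 and 11.05 in WT-labelled and 10.99, 11.00 and 10.97 in KO-labelled heads. Every KO-labelled head lay below every WT-labelled head, at 0.946 times the signal (difference −0.08, SE 0.04, limma adjusted p = 0.77), and without WT 1 the difference was −0.05. Aurka, the gene of Aurora A, read 10.67, 10.66 and 10.65 against 10.59, 10.71 and 10.60, with KO 2 above and the other KO-labelled heads below all WT-labelled heads. Kif11, the motor gene that pushes spindle poles apart, differed by −0.02.

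The chromosomal passenger complex, which corrects wrong attachments and later steers cytokinesis, was measured through all 4 core genes. Aurkb, its kinase, differed by −0.06, Birc5 (survivin) by −0.06 and Cdca8 (borealin) by −0.06. Incenp, the scaffold, differed by +0.04, with WT 1 lowest at 9.83 and the other 5 heads between 9.93 and 9.99. The groups overlapped for all 4, and limma gave them adjusted p-values of 0.81 to 0.91.

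Cytokinesis genes had a median difference of 0.0021 (log2), 3 of 5 being higher. Kif20a, a kinesin gene of the central spindle, read 10.98, 10.99 and 10.91 in WT-labelled and 10.89, 10.88 and 10.87 in KO-labelled heads. The KO-labelled heads were all lower, at 0.945 times the signal (difference −0.08, SE 0.04, limma adjusted p = 0.75). Kif23, for the kinesin of the centralspindlin complex, differed by +0.03 and Prc1, the microtubule bundler of the midzone, by −0.03 (−0.0014 without WT 1). Anln, for the ring protein anillin, differed by +0.03 and had KO 2 at 10.65, with the other 5 heads between 10.46 and 10.51. Ect2, the gene of the exchange factor that activates RhoA at the division plane, read 11.39, 11.30 and 11.30 against 11.33, 11.32 and 11.34. Its difference of 0.0021 changed sign with median centring.

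Part of the pattern followed single heads. KO 3 had the lowest signal of the 6 heads for 15 of the 34 members (44.1%), where it was lowest for 25.7% of all genes tested. WT 1 had the highest signal for 13 members (38.2%), against 29.6% of all genes. The median deviation of the members from their own 6-head means was −0.04 in KO 3 and −0.02 in KO 1, but +0.02 in KO 2, above the +0.0042 of WT 2 and the +0.0098 of WT 3. The groups of heads thus overlapped in this measure. In KO 3 all genes together deviated by −0.03 and neuronal markers by −0.27. KO 1 had neuronal markers at +0.12.

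**Figure D4:**
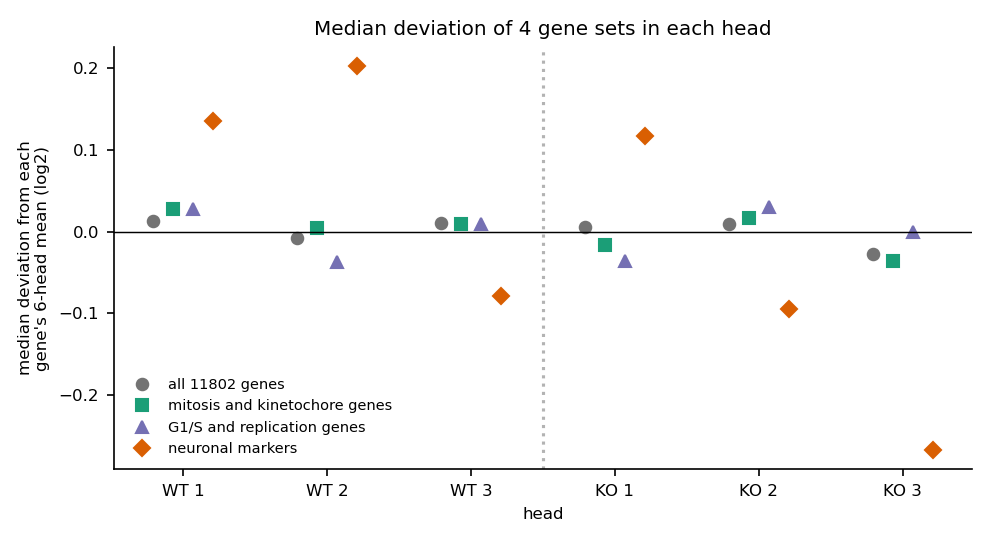
Median deviation of each head (x axis) from the 6-head mean of each gene (y axis, log2) for all genes tested, the 34 members, genes of G1/S and replication, and neuronal markers. The members stay between −0.04 (KO 3) and +0.03 (WT 1), and neuronal markers run from −0.27 to +0.20.

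By position, Mybl2, Bub1, Bub1b, Spc25, Aurka and Tpx2 lie on chromosome 2, as Tasp1 does (assembly GRCm38.p6). All 6 were lower in KO-labelled heads, with a median difference of −0.04, where 57.3% of all genes tested on that chromosome were lower. Without WT 1, Bub1 (+0.0034), Mybl2 (+0.02) and Spc25 (+0.04) were higher, which left 3 of the 6 lower. The other 28 members had a median of −0.02, 17 lower and 11 higher. In limma 0 of the 6 chromosome 2 members had an unadjusted p under 0.05. That share was 11.1% of all genes tested on chromosome 2 and 7.13% of all genes tested.

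Further genes of mitosis differed little too, with list medians between −0.03 and −0.01, where the median of all genes was −0.0092 and that of the members −0.03. In limma 0 of the 30 other kinetochore and centromere genes passed, with 17 lower and 13 higher and a median of −0.02 (log2), and 4 had an unadjusted p under 0.05, 3 lower and 1 higher (13.3%, against 7.13% of all genes tested). Knl1, for the scaffold that joins the NDC80 complex to checkpoint proteins, read 10.74, 10.75 and 10.76 in WT-labelled and 10.96, 11.05 and 10.97 in KO-labelled heads, 1.19 times as high (difference +0.25, limma adjusted p = 0.18). It lies on chromosome 2 too. Cenpm, of the inner kinetochore, read 10.21, 10.14 and 10.17 against 9.96, 9.98 and 9.98 (difference −0.20, adjusted p = 0.27), and Cenpn, whose product binds CENP-A nucleosomes, differed by −0.13. Pmf1, of the MIS12 complex, had the most negative difference of this list (−0.21, adjusted p = 0.67), with its KO-labelled heads the 3 lowest; it is named because it completes the count of 4.

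Of 27 other genes of the checkpoint, the APC/C and CDK1 control, 17 were lower and 10 higher (median −0.03), led in p by the ubiquitin-conjugating enzyme gene Ube2s (−0.07), Cks1b (−0.12) and Mastl (+0.10). Of 26 other spindle and cytokinesis genes, 18 were lower (median −0.01), with Ckap2 at +0.12, Kif20b at +0.09 and the condensin gene Ncaph at −0.07. Among 14 genes of the MuvB complex and its partners (median −0.02), Rbl1, for the pocket protein p107, differed by +0.19 and the NF-Y subunit gene Nfya by −0.09, with Tfdp2 at −0.05. In limma 0 genes of these lists passed adjustment, and Ckap2 and Rbl1 alone had an unadjusted p under 0.05. By list the shares were 0% (checkpoint, APC/C and CDK1 control), 3.85% (spindle and cytokinesis) and 7.14% (MuvB), against 7.13% of all genes tested. The 27 tested genes of G1/S and replication had a median of −0.01, 14 lower and 13 higher, with Pcna at +0.10, Cdk6 at +0.24 and Ccnd2 at +0.08. Of its 4 genes with an unadjusted p under 0.05 (14.8%, against 7.13% of all genes tested), the remaining one, Rrm2, was lower (−0.10). Among the genes named in this paragraph, Rbl1, Mastl and Pcna (higher) and Ncaph (lower) lie on chromosome 2, as Tasp1 does. Any link to that position was not tested.

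**Figure D5:**
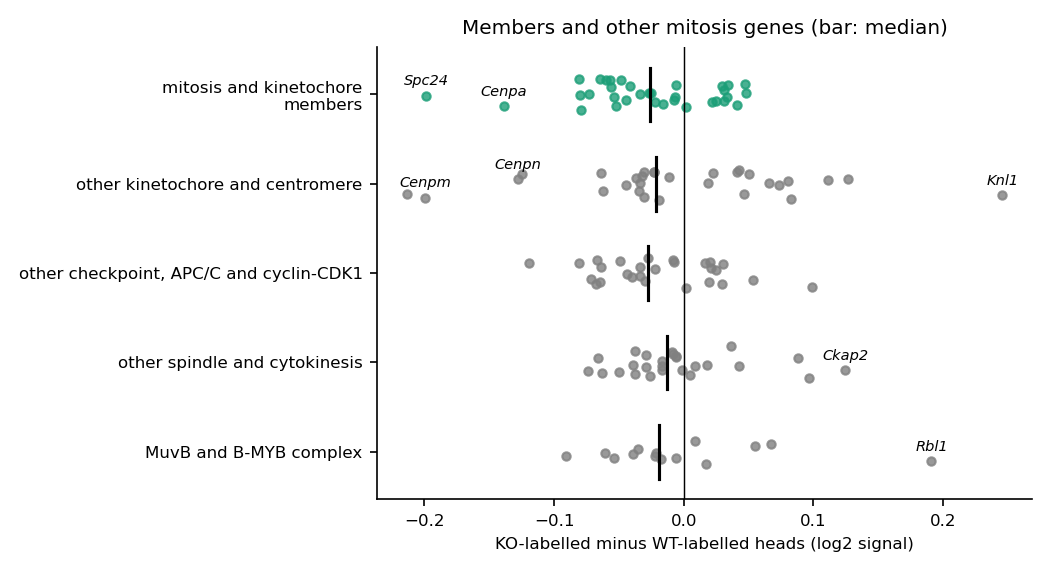
Difference in log2 signal, KO-labelled minus WT-labelled heads (x axis), for the 34 members (green) and 4 lists of other mitosis genes (grey), 1 point per gene with the median as a bar. The medians lie between −0.03 and −0.01, and Knl1 at +0.25 and Rbl1 at +0.19, both on chromosome 2, stand on the higher side.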

How the data were processed

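Total RNA of 6 heads (100 ng each) was labelled with biotin and read on 1 Affymetrix array per head, per the labels' protocols. The deposited table holds log2 signals for 35556 probe sets. Affymetrix Expression Console and MAS5 appear in the submitters' processing notes with no version. The authors' background subtraction, scaling and probe summary are not stated in what was used here. The values were used as deposited. Their array medians ran from 7.35 (WT 1) to 7.45, a spread as large as most differences described, and median centring is among the alternatives. Where background is left in the signal, ratios understate changes of transcripts.

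Of the probe sets, 21789 carry 1 symbol in the platform annotation. The 40% of these with the lowest mean (log2 signal below 7.06) were left out, and the highest-mean probe set stood for each gene. Groups were compared with limma 3.58.1 in R 4.3.3 (lmFit, eBayes with trend, two-sided, Benjamini-Hochberg over 11802 genes, threshold 0.05). The procedure was tested on simulated data. Members, lists and tests were chosen with earlier results of these data known, so lists are described by counts and medians without a test. All members are named, and of each other mitosis list up to 3 genes with the smallest p. Heads with the same replicate number did not deviate together (correlations −0.17, −0.11 and −0.21), so the fit has no replicate term. Tried as alternatives were other scalings, filters, added constants, variance models, probe set rules, the block, Xist as a covariate, and each head left out. The planned scan of protein sequences was not run. Figures were drawn with matplotlib 3.10.9.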

Additional observations from a re-analysis of the deposited data

How the results depend on the processing

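The number of arrays limits the precision, and signal over background is not known here. The count of 0 called members held under every alternative run, 6 of which left out a head each. Over all genes, 0 were called as reported, against 841 at an unadjusted p under 0.05; limma called 1 with quantile normalization (Caprin2), 2 without the filter (Caprin2 and Mir9-1), 1 with the lowest 60% left out (Caprin2), 3 at an adjusted p of 0.1 (Caprin2, Dgat2 and Gmnc), and 0 to 6 with single heads left out. The 6 came without KO 1 and were Caprin2, Ccng1, Cxcl13, Gmnc, Robo3 and Snap23, and Sst alone was called without WT 1. With the replicate block 0 genes and 0 members were called, and the block changed no other call. The Tasp1 difference of +0.24 ran from 0.12 without WT 1 to 0.31 without WT 3.

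The members' median of −0.03 was −0.053 with median centring, where the median of all genes was −0.04, and ran from −0.045 to −0.0093 with single heads left out; the other alternatives moved it by less than the spread between heads, and without the members on chromosome 2 it was −0.02. Of the 34 members, 21 kept their sign in every setting and 13 changed it at least once, none of them past the threshold on either side. Signs turned with quantile normalization for Bub1 (0.0045) and Mad2l1 (0.0047), with median centring for Espl1 (−0.0023), Cenpe (−0.0048) and Ect2 (−0.025), and with Xist as a covariate for Bub1 (0.016) and Ect2 (−0.015); the cause was not tested. With single heads left out, Bub1 ran from −0.037 to 0.038, Ect2 from −0.014 to 0.034, Mad2l1 from −0.034 to 0.016, Cenpe from −0.0015 to 0.037, Mybl2 from −0.036 to 0.017, Cdc20 from −0.079 to 0.0054, Spc25 from −0.106 to 0.039, Incenp from −0.0020 to 0.076, Kif23 from −0.014 to 0.071, Anln from −0.024 to 0.074, Ndc80 from −0.039 to 0.00056 and Kif11 from −0.048 to 0.00080.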

Other observations

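Top2a is read by further probe sets that did not enter its value. A dimmer one with its symbol alone (10390746) lay below the brightness filter, at 6.31, 6.42 and 6.45 in WT-labelled and 6.48, 6.55 and 6.44 in KO-labelled heads (log2 signal). It differed by +0.10, with KO 3 just below WT 3. Others are annotated to Top2a and to Hibadh, a gene of valine breakdown, so their signal belongs to no single gene. These (10394731 and 10408329) differed by +0.15 and +0.17, with overlapping groups, WT 2 being the lowest and KO 2 the highest head on both.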
